A study of Rattus norvegicus with 12 samples.

Results

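The genes described here are 10 members of the circadian clock and its output: the transcription factors Dbp, Tef, Hlf and Nfil3, the nuclear receptors Nr1d1 and Nr1d2, the Period genes Per1, Per2 and Per3, and the repressor Bhlhe40. They were taken by name as every probe set that the platform annotation assigns to one of these symbols, which gave 19 probe sets of the 31042 tested, or 10 genes of 14217. Tef has 3 probe sets, Hlf 4, Nr1d2 3, Per2 2 and Per3 2, and Dbp, Nfil3, Nr1d1, Per1 and Bhlhe40 have 1 each. All 19 were tested without a filter on low values.

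The samples are 12 Affymetrix arrays of RNA from primary hepatocytes of Wistar rats, freed from liver with collagenase, purified on Percoll and used on the day after isolation. There are 4 groups of 3 arrays: cells with 250 U/ml rat interferon alpha for 6 h, untreated controls incubated for 6 h, cells with 250 U/ml rat interferon alpha for 3 h, and untreated controls incubated for 3 h. The titles call the 3 arrays of a group biological replicates. Age and sex of the animals, the hour of the day and the serum or hormones in the medium are not given in the sources used here, so hours in culture, hours since the last handling and hour of the day cannot be told apart in any 6 h minus 3 h difference. Values are log2 probe set levels made with RMA, a method that gives all arrays the same overall distribution. One unit is a doubling, and a value of one probe set is not comparable with that of another. Array medians ran from 5.16 to 5.21.

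In nearly every mammalian cell, including the hepatocyte, the heterodimer of CLOCK and BMAL1 binds E-box sequences and drives the Period and Cryptochrome genes, whose proteins return to block it. The same dimer drives Nr1d1 and Nr1d2, which encode the repressors REV-ERB alpha and beta of Bmal1, and Bhlhe40, which encodes DEC1, a repressor that competes for E-boxes. Dbp, Tef and Hlf encode activators of the PAR bZIP family that bind D-box elements in liver output genes, and Nfil3 encodes E4BP4, which binds the same elements and represses. Per1 and Per2 are also known as early targets of glucocorticoid and cyclic AMP signalling, by which hormones, feeding and fresh medium reset the clock of cultured cells.

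RefSeq promoters of assembly GRCr8, each 300 bases long from 250 before to 50 after the start, were found for 9 of the 10 genes. Hlf had no entry, and Nr1d1 had 2. The E-box CACGTG, the E'-box CACGTT, the D-box TTANGTAA, the core TNGGTCA of the ROR element, the glucocorticoid response element and the cAMP response element TGACGTCA were searched on both strands. Matches stood in 5 of the 10 promoter entries, from 4 genes. The E-box, present in 6.42% of all 33469 rat promoters, was found in Tef, Bhlhe40 and the second entry of Nr1d1. The E'-box, present in 4.83%, was found in Per2 and the first entry of Nr1d1, and the D-box, present in 2.24%, in Per2. No member entry matched the ROR core (11.1% of all promoters), the glucocorticoid response element (0.439%) or the cAMP response element (1.83%). One promoter per gene with a match is shown, 5′ to 3′ on the gene's own strand with the matched motif in capitals, since these 4 genes span the behaviours reported below. Tef lies at chr7:115206577-115206876 on the plus strand, Nr1d1 at chr10:84229405-84229704 on the minus strand, Per2 at chr9:99496944-99497243 on the minus strand and Bhlhe40 at chr4:143174200-143174499 on the plus strand. The capitals in Per2 are the D-box first and then the E'-box, and in the other 3 the E-box.
Tef: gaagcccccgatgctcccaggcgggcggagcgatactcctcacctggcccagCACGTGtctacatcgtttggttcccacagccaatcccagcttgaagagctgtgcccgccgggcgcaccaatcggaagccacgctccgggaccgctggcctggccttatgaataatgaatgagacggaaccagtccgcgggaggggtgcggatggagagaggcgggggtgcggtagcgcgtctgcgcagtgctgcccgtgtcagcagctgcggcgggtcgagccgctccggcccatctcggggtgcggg
Nr1d1: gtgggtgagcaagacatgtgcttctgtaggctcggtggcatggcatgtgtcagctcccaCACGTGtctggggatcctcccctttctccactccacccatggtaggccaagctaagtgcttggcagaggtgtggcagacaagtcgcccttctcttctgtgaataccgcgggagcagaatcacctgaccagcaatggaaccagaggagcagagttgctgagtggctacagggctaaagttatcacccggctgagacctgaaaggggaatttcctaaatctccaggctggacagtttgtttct
Per2: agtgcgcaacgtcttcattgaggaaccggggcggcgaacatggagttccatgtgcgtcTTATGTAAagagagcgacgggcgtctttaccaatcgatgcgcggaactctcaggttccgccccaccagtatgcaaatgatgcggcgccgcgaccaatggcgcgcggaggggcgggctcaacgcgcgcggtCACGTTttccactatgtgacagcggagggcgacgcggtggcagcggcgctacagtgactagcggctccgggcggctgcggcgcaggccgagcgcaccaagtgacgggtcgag
Bhlhe40: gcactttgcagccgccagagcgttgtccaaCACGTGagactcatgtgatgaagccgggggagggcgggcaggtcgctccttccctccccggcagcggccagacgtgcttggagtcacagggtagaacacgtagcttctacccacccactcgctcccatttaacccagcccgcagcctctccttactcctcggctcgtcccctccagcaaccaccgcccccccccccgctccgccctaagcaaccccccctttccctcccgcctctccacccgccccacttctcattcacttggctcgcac

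Between 3 h and 6 h of incubation some clock genes were lower at 6 h and others higher, and no difference between these changes with and without interferon alpha passed the test. The PAR bZIP activators Tef and Hlf were lower at 6 h and Per1 was higher, while the REV-ERB gene Nr1d1 and the brightest probe set of Nr1d2 were higher in all 6 same-number pairs of arrays. All 6 such differences had one sign for 20.4% of all probe sets. Dbp, Per2 and Per3 followed the replicate rather than the hour. In the limma fit of the 12 arrays, with p-values adjusted by Benjamini-Hochberg over all 31042 probe sets and called under 0.05, 3 of the 19 clock probe sets passed for the 6 h minus 3 h change averaged over interferon alpha and control, against 3.89% of all probe sets. Those 3 were Tef and Hlf, which fell as 1.93% of all probe sets did, and Per1, which rose as 1.97% did. Arrays of the same replicate number deviated together, so the fit was repeated with the replicate number as a block. Then 10 of the 19 probe sets passed, from 6 genes, against 18.4% of all probe sets: Tef (2 probe sets) and Hlf (3) were lower, against 10% of all, and Nr1d1 (1), Nr1d2 (2), Per1 (1) and Bhlhe40 (1) higher, against 8.43% of all. In such bulk samples, fewer cells of a type and less RNA per cell cannot be told apart.

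**Figure D1:**
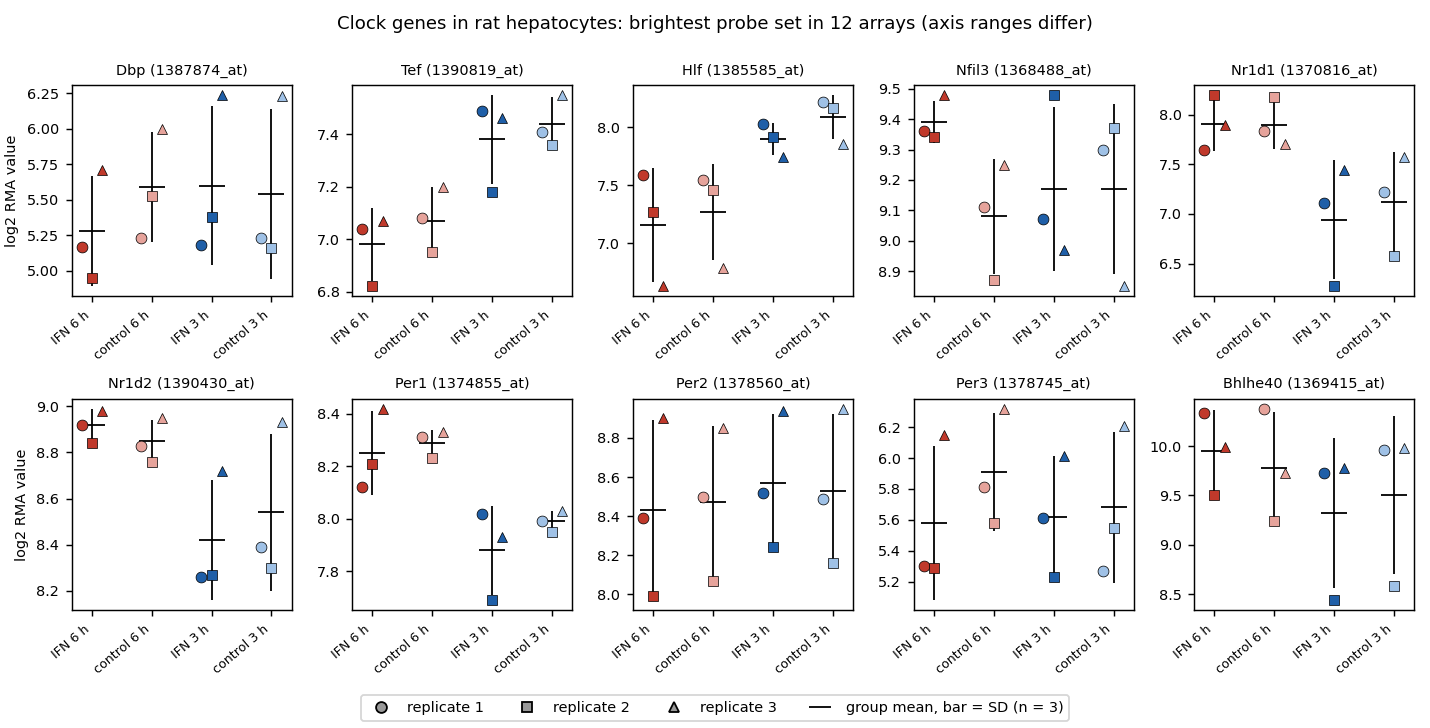
Log2 RMA value of the brightest probe set of each of the 10 clock genes on the 12 arrays, 1 panel per gene with its own axis range. Points are arrays with a symbol for each replicate number, bars are group means with their SD (n = 3), and the columns are, left to right, interferon alpha at 6 h, control at 6 h, interferon alpha at 3 h and control at 3 h. Tef and Hlf sit lower and Nr1d1, Nr1d2 and Per1 higher in the 6 h columns, while the arrays of Per2 stay near their replicate means of 8.48, 8.12 and 8.91 in all 4.

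Among the activators, Tef (probe set 1390819_at) read 7.04, 6.82 and 7.07 with interferon alpha at 6 h and 7.08, 6.95 and 7.20 in controls at 6 h, against 7.49, 7.18 and 7.46 with interferon alpha at 3 h and 7.41, 7.36 and 7.55 in controls at 3 h. Within each treatment all 6 h arrays lay below all 3 h arrays, which held for 6.81% of all probe sets with interferon alpha and 6.3% in controls. The averaged change was -0.38 ± 0.08 (SE of the fit, 12 arrays), a level 0.767 times that at 3 h (adjusted p = 0.0259, and 5.00e-04 with the block). Of the same-number differences 6 of 6 were negative, and 20.4% of all probe sets had one sign in all 6. The change was -0.40 ± 0.11 with interferon alpha (adjusted p = 0.172; 0.00662 with the block) and -0.36 ± 0.11 in controls (0.273; 0.0127 with the block). Tef lost the averaged call, with adjusted p of 0.0538 to 0.0667, without interferon alpha 3 h replicate 1 or 3, control 3 h replicate 1 or 3, control 6 h replicate 1 or 2, or interferon alpha 6 h replicate 2. With the block the call was kept without any replicate number (0.0081 to 0.0164). A second Tef probe set, 1385374_at, changed by -0.35 ± 0.13 (adjusted p = 0.191; 0.0127 with the block, but 0.152 without replicate 2 and 0.0932 without replicate 3). The third, 1369919_at, changed by -0.04 ± 0.08 and did not pass, so the Tef probe sets disagree.

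Hlf had the widest drop among the members. Its brightest probe set, 1385585_at, read 7.59, 7.27 and 6.63 with interferon alpha at 6 h and 7.55, 7.46 and 6.79 in controls at 6 h, against 8.03, 7.92 and 7.74 with interferon alpha at 3 h and 8.22, 8.17 and 7.86 in controls at 3 h. All 6 arrays at 6 h were below all 6 arrays at 3 h, a separation in that direction that 2.13% of all probe sets shared. Hlf fell by 0.78 ± 0.17 on the log2 scale, to 0.583 times the 3 h level (adjusted p = 0.0344; 1.71e-04 with the block). The change was -0.74 ± 0.25 with interferon alpha (adjusted p = 0.272; 0.00446 with the block) and -0.82 ± 0.25 in controls (0.262; 0.0035 with the block). The averaged call was lost, at 0.0529 to 0.0849, without interferon alpha 3 h replicate 1, 2 or 3, control 3 h replicate 1 or 2, interferon alpha 6 h replicate 2 or 3, or control 6 h replicate 3. With the block it was kept without any replicate number (0.00175 to 0.00678). Probe set 1386641_at of Hlf moved by -0.81 ± 0.25 (adjusted p = 0.118; 8.16e-04 with the block, and kept with the block without any replicate number). Probe set 1374709_at moved by -0.32 ± 0.17 (0.393; 0.00767 with the block, lost there without replicate 1 at 0.0894 or replicate 2 at 0.125, and with a random block at 0.0738). Both were lower in 6 of 6 same-number differences, which had one sign for 20.4% of all probe sets. The fourth, 1384811_at, had a mean of 3.13, below the lower quartile of every array (3.84 to 3.93), and changed by 0.05 ± 0.06.

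Dbp, the founding PAR bZIP factor and a strongly cycling liver transcript in the intact animal, did not pass. Its probe set read 5.17, 4.95 and 5.71 with interferon alpha at 6 h and 5.23, 5.53 and 6.00 in controls at 6 h, against 5.18, 5.38 and 6.24 with interferon alpha at 3 h and 5.23, 5.16 and 6.23 in controls at 3 h. Replicate 3 was the highest in all 4 groups, and the hours overlapped. The averaged change of Dbp was -0.14 ± 0.25, with a 95% interval of -0.68 to 0.41 (adjusted p = 0.874). Nfil3, the repressor at the same elements, read 9.36, 9.34 and 9.48 with interferon alpha at 6 h and 9.11, 8.87 and 9.25 in controls at 6 h, against 9.07, 9.48 and 8.97 with interferon alpha at 3 h and 9.30, 9.37 and 8.85 in controls at 3 h. Its averaged change was 0.06 ± 0.12 with an interval of -0.20 to 0.32 (adjusted p = 0.88). So of the 4 D-box factors, 2 activators fell, and the third activator and the repressor did not pass.

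Of the REV-ERB genes, Nr1d1 read 7.64, 8.20 and 7.90 with interferon alpha at 6 h and 7.83, 8.18 and 7.70 in controls at 6 h, against 7.11, 6.27 and 7.44 with interferon alpha at 3 h and 7.22, 6.58 and 7.57 in controls at 3 h. Every 6 h array was above every 3 h array, which held for 1.71% of all probe sets. The averaged difference was 0.88 ± 0.22, or 1.84-fold, and its adjusted p of 0.0521 missed the threshold without the block and passed with it (0.00985). It was 0.98 ± 0.31 with interferon alpha (adjusted p = 0.238; 0.053 with the block) and 0.78 ± 0.31 in controls (0.418; 0.125 with the block). Replicate 2 had the lowest 3 h values and the widest difference. With the block, the value was 0.44 without replicate 2 (adjusted p = 0.0241), 1.03 without replicate 1 (0.0386) and 1.17 without replicate 3 (0.0193). Without the block, Nr1d1 passed when interferon alpha 3 h replicate 3 (0.0371) or control 3 h replicate 3 (0.0416) was left out.

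Nr1d2 had a smaller difference in the same direction. Its brightest probe set, 1390430_at, read 8.92, 8.84 and 8.98 with interferon alpha at 6 h and 8.83, 8.76 and 8.95 in controls at 6 h, against 8.26, 8.27 and 8.72 with interferon alpha at 3 h and 8.39, 8.30 and 8.93 in controls at 3 h. The 6 h values were close together (SD 0.07 with interferon alpha and 0.09 in controls), while replicate 3 stood above the other two at 3 h. The averaged difference was 0.40 ± 0.12, or 1.32-fold (adjusted p = 0.0934, and 0.00282 with the block). This difference was positive in 6 of 6 same-number pairs, though by only 0.02 in control replicate 3, and 20.4% of all probe sets had one sign in all 6. With the block it was lost without replicate 1 (0.0551) or replicate 2 (0.06), and without the block it passed when interferon alpha 3 h replicate 3 (0.0497) or control 3 h replicate 3 (0.0226) was left out. It was 0.50 ± 0.17 with interferon alpha (adjusted p = 0.272; 0.0125 with the block) and 0.31 ± 0.17 in controls (0.598; 0.0995 with the block). Of the other Nr1d2 probe sets, 1370541_at differed by 0.37 ± 0.17 (0.326; 0.0203 with the block, lost there without replicate 1 at 0.176 or replicate 2 at 0.227, and with a random block at 0.0708) and 1370540_at by 0.34 ± 0.16 (0.336; 0.069 with the block). They were higher in 5 and 4 of 6 same-number pairs, and both were lower in control replicate 3 (-0.08 and -0.05).

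The Period genes, which encode the proteins that block CLOCK and BMAL1, did not move together. Per1 read 8.12, 8.21 and 8.42 with interferon alpha at 6 h and 8.31, 8.23 and 8.33 in controls at 6 h, against 8.02, 7.69 and 7.93 with interferon alpha at 3 h and 7.99, 7.95 and 8.03 in controls at 3 h. All 6 h arrays were above all 3 h arrays, which held for 1.71% of all probe sets. Per1 rose by 0.33 ± 0.07, or 1.26-fold (adjusted p = 0.0312; 0.00354 with the block), by 0.37 ± 0.10 with interferon alpha (0.172; 0.0248 with the block) and 0.30 ± 0.10 in controls (0.335; 0.0657 with the block). The averaged call is narrow: it was lost, at 0.0503 to 0.0756, without any one of the 12 arrays other than interferon alpha 3 h replicate 1 and interferon alpha 6 h replicate 1, and when the variance was allowed to follow the mean level (0.062). With the block it was lost without replicate 2 (0.0545) or replicate 3 (0.0624).

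Per2 did not pass on either probe set. Probe set 1378560_at read 8.39, 7.99 and 8.90 with interferon alpha at 6 h and 8.50, 8.07 and 8.85 in controls at 6 h, against 8.52, 8.24 and 8.94 with interferon alpha at 3 h and 8.49, 8.16 and 8.95 in controls at 3 h. In all 4 groups replicate 3 was highest and replicate 2 lowest. The averaged change of Per2 was -0.10 ± 0.20 with an interval of -0.55 to 0.35 (adjusted p = 0.889), and that of its second probe set, 1368303_at, -0.34 ± 0.39 with an interval of -1.20 to 0.51 (0.763). The same-number differences of that second probe set ran from -1.05 to 0.41. The brighter Per3 probe set, 1378745_at, had replicate means of 5.50, 5.41 and 6.18 and an averaged change of 0.10 ± 0.22 (0.909), and the dimmer one, 1388239_at, with a mean of 3.94, changed by 0.02 ± 0.08 (0.953). None of these 4 probe sets passed with the block either.

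Bhlhe40 read 10.34, 9.51 and 9.99 with interferon alpha at 6 h and 10.38, 9.24 and 9.73 in controls at 6 h, against 9.73, 8.44 and 9.78 with interferon alpha at 3 h and 9.96, 8.58 and 9.98 in controls at 3 h. Replicate 2 was lowest in all 4 groups and had the widest time difference, and control replicate 3 was lower at 6 h. The averaged difference was 0.45 ± 0.33 (adjusted p = 0.575), and it passed with the block (0.023). There it was 0.25 without replicate 2 (0.255), 0.42 without replicate 1 (0.147) and 0.69 without replicate 3 (0.00688), so that the call needed both replicates 1 and 2. It was also lost with the replicate number as a random block (0.19), in which the shared deviation of a number is estimated over all probe sets. With interferon alpha alone the difference was 0.63 ± 0.46 (0.752; 0.0412 with the block and 0.278 with the random block).

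**Figure D2:**
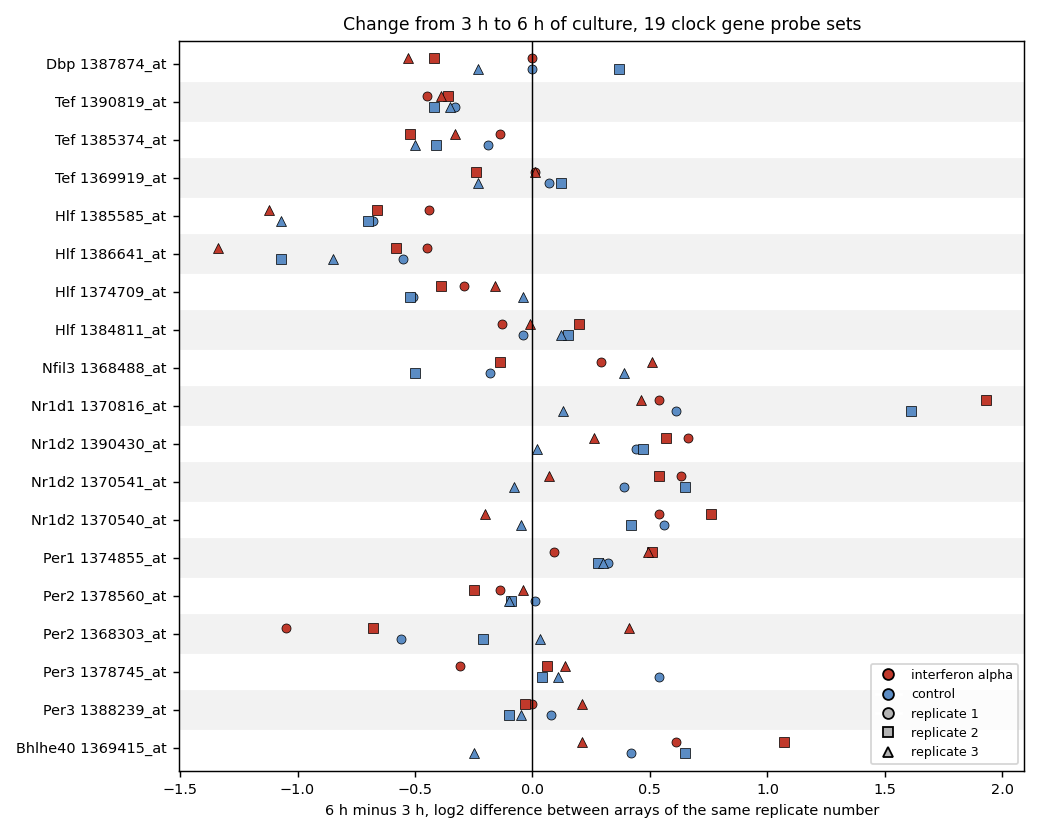
Log2 difference of 6 h minus 3 h between arrays of the same replicate number for the 19 clock probe sets, with 3 points for interferon alpha and 3 for control in each row and a line at 0. For 8 of the 19 probe sets, namely 3 of Hlf, 2 of Tef and those of Nr1d1, Nr1d2 (1390430_at) and Per1, all 6 points fall on one side. This held for 20.4% of all probe sets.

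All 6 same-number differences had one sign for 8 of the 19 clock probe sets, against 20.4% of all probe sets. Within single treatments no clock probe set passed without the block. With interferon alpha this was 0 of 19, against 0.387% of all probe sets, with 5 below an unadjusted p of 0.05, against 10.6% of all. In controls it was 0 of 19, against 0.19% of all, also with 5 below an unadjusted p of 0.05, against 10.1% of all. With the block, 6 of 19 passed with interferon alpha, against 9.68% of all probe sets, and 4 of 19 in controls, against 8.15%. The 6 were Tef, Hlf (2 probe sets), Nr1d2, Per1 and Bhlhe40, and the 4 were Tef and Hlf (3 probe sets). Each of these calls was lost without at least 1 replicate number, other than that of Hlf 1385585_at in controls (0.0248 to 0.0468). Tef was lost without any of the 3 (0.052 to 0.0888 with interferon alpha and 0.0752 to 0.117 in controls). The others in the interferon alpha arrays were lost without replicate 2 (Hlf at 0.059 for 1385585_at and 0.0765 for 1386641_at, Nr1d2 at 0.13, Per1 at 0.242, Bhlhe40 at 0.267), and some also without replicate 1 (Nr1d2 at 0.12, Bhlhe40 at 0.171) or replicate 3 (Per1 at 0.24, Hlf 1386641_at at 0.146). In controls, Hlf 1386641_at was lost without replicate 2 (0.141) or 3 (0.0567), and 1374709_at without replicate 1 (0.308) or 2 (0.305). With the random block, Hlf 1386641_at was lost with interferon alpha (0.0874) and in controls (0.0888), Hlf 1374709_at in controls (0.239) and Bhlhe40 with interferon alpha (0.278). The difference between the 6 h minus 3 h changes, interferon alpha minus control, was tested directly. It passed for 0 of the 19 (0% of all probe sets in limma, with and without the block). Of the 19, 0 were below an unadjusted p of 0.05 in either fit, against 2.17% of all without the block and 1466 of 31042 with it. For Tef that difference was -0.04, with a 95% interval of -0.39 to 0.32, for Hlf 0.08 (-0.69 to 0.85), for Nr1d1 0.19 (-0.77 to 1.16) and for Per1 0.07 (-0.25 to 0.39). The intervals leave room for a Nr1d1 change that differs by a doubling between treatments.

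Interferon alpha itself moved no clock probe set past the threshold at either hour. The cells did respond: of 6 interferon-stimulated genes, all 6 rose at 6 h, by 2.68 (Isg15) to 4.90 (Cmpk2) log2, and 1 of 6 passed at 3 h (Cxcl10, 4.98 ± 0.52, adjusted p = 0.0372). For interferon alpha minus control at 6 h, 0 of 19 clock probe sets passed in limma, against 0.387% of all, and 0 were below an unadjusted p of 0.05, against 3.69% of all. With the block 0 passed, against 1.1% of all. There 2 of 19 were below an unadjusted p of 0.05, against 2539 of all 31042 probe sets: Per3 (1378745_at, -0.33) and Dbp (-0.31). At 3 h 0 of 19 passed, against 0.00644% of all (0.0966% with the block). At that hour 0 were below an unadjusted p of 0.05 in either fit, against 2.95% of all without the block and 2094 of 31042 with it. At 6 h the interval of the interferon alpha minus control difference was -0.35 to 0.15 for Tef, -0.65 to 0.44 for Hlf, -0.27 to 0.19 for Per1 and -0.67 to 0.69 for Nr1d1. Nfil3 had the largest positive difference among the 19 at 6 h. Its 3 interferon alpha arrays (9.36, 9.34 and 9.48) lay above its 3 control arrays (9.11, 8.87 and 9.25), which held for 4.29% of all probe sets, and the difference of 0.32 ± 0.17 did not pass (adjusted p = 1; 0.658 with the block).

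How much of each gene's spread followed the replicate number and how much the hour was read from the sum of squares over the 12 arrays of its brightest probe set. The hour took 72.3% for Tef, 71.1% for Per1, 64.3% for Hlf, 59.8% for Nr1d1 and 53.5% for Nr1d2, against a median of 8.35% over all probe sets. The replicate number took 96% for Per2, 82.4% for Dbp, 80% for Per3 and 72.5% for Bhlhe40, against a median of 28.5%. Per2 thus stood at percentile 99.1 of all probe sets for the replicate share. Nfil3 was the exception, with 6.03% for the replicate number and 2.08% for the hour. Replicate 3 had the highest mean of Dbp (6.04, against 5.20 and 5.26 in replicates 1 and 2), of Per2 and of Per3. Replicate 2 had the lowest mean of Bhlhe40 (8.94, against 10.1 and 9.87 in replicates 1 and 3). The labels do not say what the replicates differ in, so its part in these levels was not tested.

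**Figure D3:**
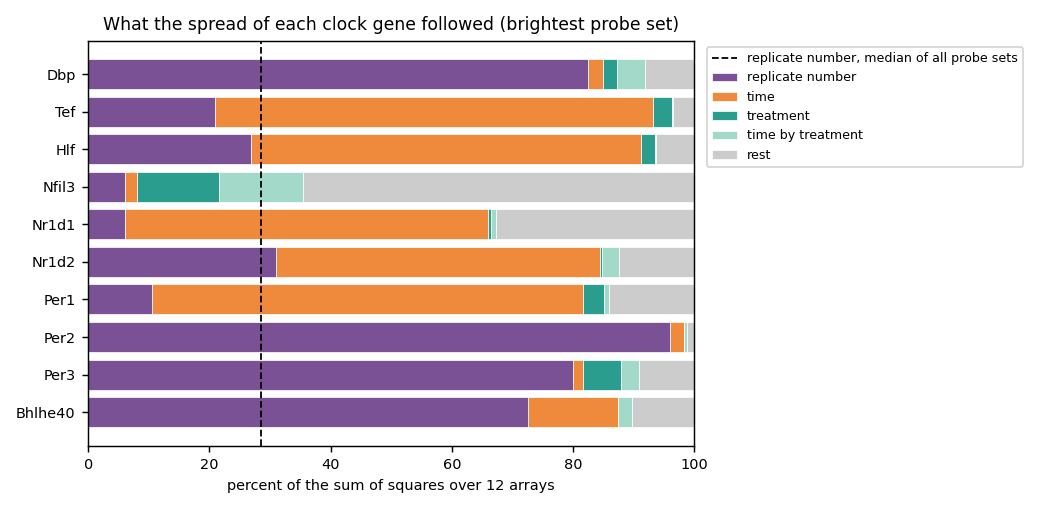
Share of the sum of squares over the 12 arrays, in percent, for the brightest probe set of each clock gene. The shares are those that followed the replicate number, the hour, the treatment, hour by treatment and the rest. A dashed line marks the median share of the replicate number over all probe sets, 28.5%. The hour is the largest share for Tef, Per1, Hlf, Nr1d1 and Nr1d2, and the replicate number for Per2, Dbp, Per3 and Bhlhe40.

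As a description across the 12 arrays, which share their replicate and hour, Per2 correlated with Per3 at r = 0.821 and with Dbp at r = 0.802, and Dbp with Per3 at r = 0.818. After the replicate means were taken out these were 0.0316, 0.397 and 0.0887. Tef and Hlf behaved the other way, with r = 0.584 before and 0.932 after. Nr1d1 correlated with Nr1d2 at r = 0.819 (0.854 after) and with Per1 at r = 0.828. The genes most like Nr1d1, by Pearson correlation over the 12 arrays among 13973 genes, were Rps6ka5 (0.936), Stk39 (0.9), Crb3 (0.887), Tob2 (0.879), Srcin1 (0.876), Saxo4 (0.875), Dvl2 (0.87) and Borcs6 (0.87). Their averaged 6 h minus 3 h differences ran from 0.20 for Stk39 to 0.64 for Tob2. Several were dim, with means of 3.9 for Rps6ka5, 4.15 for Dvl2, 4.7 for Stk39, 4.8 for Srcin1 and 5.13 for Saxo4. These lie below 5.2, the median over all probe sets. The means were 6.51 for Borcs6, 7.1 for Crb3 and 8.18 for Tob2.

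The rest of the clock was read from lists of known genes, each gene by its brightest probe set, for the averaged 6 h minus 3 h change, against the 3.89% of all probe sets that passed and the 18.4% that passed with the block. Of 6 measured activators of the positive arm and their ROR drivers, 0 passed and 1 passed with the block: Clock, at -0.20 ± 0.06 (adjusted p = 0.118; 0.0467 with the block, lost there without replicate 2 at 0.181 or replicate 3 at 0.312), whose 4 probe sets ran from -0.43 to 0.28. Bmal1, its partner, changed by 0.14 ± 0.35 and did not pass. The list's median was -0.08, against 0.01 for all probe sets and 0.08 for the 10 clock genes above. Of 4 measured genes of the negative arm outside the 10 clock genes above, 0 passed and 1 passed with the block. This was Cry1, the cryptochrome that pairs with the Period proteins, at -0.52 ± 0.13 (0.052; 0.00414 with the block, lost there without replicate 1 at 0.0519 or replicate 2 at 0.0504). It also passed without the block when interferon alpha 3 h replicate 3 (0.0259) or control 3 h replicate 3 (0.0326) was left out. Cry2 changed by -0.19 ± 0.22 and did not pass, and the median was -0.05. Bhlhe41 (mean 3.77) and Timeless (3.61) lay below the lower quartile of every array (3.84 to 3.93), where small differences cannot be seen.

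The largest change that passed in these lists without the block was in the turnover group, where of 7 measured genes 1 rose and 1 fell. Usp2, a deubiquitinase and known output of the liver clock, had means of 7.75 ± 0.34 with interferon alpha at 6 h and 7.78 ± 0.49 in controls at 6 h, against 8.97 ± 0.32 with interferon alpha at 3 h and 9.03 ± 0.39 in controls at 3 h (SD, n = 3 each). It fell by 1.23 ± 0.20 on the log2 scale (adjusted p = 0.00863), a call kept under every alternative run, and its second probe set fell by 0.95 (adjusted p = 0.0324). Csnk1d, the casein kinase that phosphorylates Period proteins, rose by 0.41 ± 0.08 (0.0231; 4.17e-04 with the block). Without the block it was lost, at 0.0517 to 0.0609, without interferon alpha 3 h replicate 1 or 2, control 3 h replicate 1 or 2, control 6 h replicate 1 or 3, or interferon alpha 6 h replicate 2 or 3. Of its 5 probe sets, 4 changed upward, by 0.34 to 0.45, and 1370528_at by -0.31 (0.0965; 0.00539 with the block). Csnk1e changed by 0.25 ± 0.08 (0.097) and passed with the block (0.0158), where it was lost without any one replicate number (0.0521 to 0.146). The median was 0.09.

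**Figure D4:**
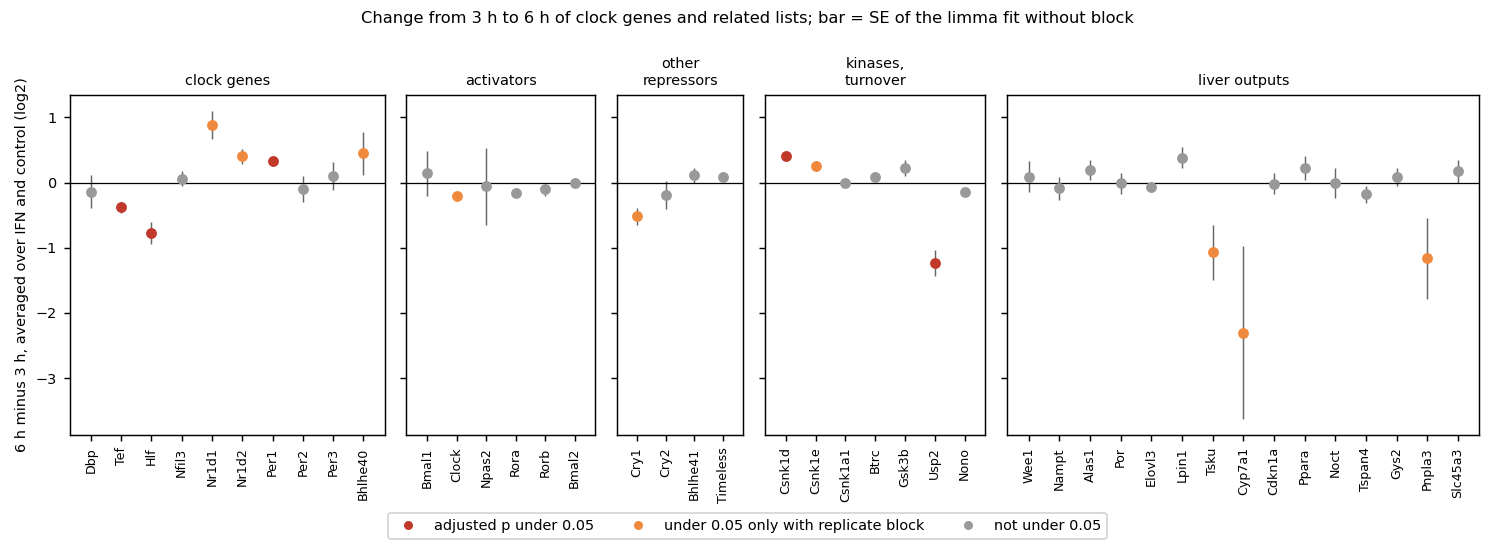
Averaged 6 h minus 3 h log2 change of each measured gene by its brightest probe set, in panels for the 10 clock genes, activators, other repressors, kinases and turnover, and liver outputs. Bars are the SE of the limma fit without the block, with a line at 0. Red points passed without the block, orange points with it alone, and grey points in neither fit. Usp2 at -1.23 is the lowest red point, and Cyp7a1 at -2.30, with an SE of 1.33, the lowest orange one.

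Of 15 measured liver output genes 0 passed, and 3 passed with the block, all lower, a share near the 18.4% of all probe sets that passed with the block. These were Cyp7a1, the rate-limiting enzyme of bile acid synthesis (-2.30 ± 1.33, adjusted p = 0.448; 4.67e-04 with the block), Pnpla3, a lipid droplet protein (-1.16 ± 0.62, 0.407; 1.65e-04) and Tsku, a secreted protein (-1.07 ± 0.42, 0.222; 1.93e-05). With the fixed block all 3 were kept without any replicate number, but with the random block Cyp7a1 (0.0739) and Pnpla3 (0.0543) were lost and Tsku was kept (0.0124). Without the block, the Cyp7a1 value was -1.40 without interferon alpha 6 h replicate 3 and -1.37 without control 6 h replicate 3. The median over this list was -0.01. Since Per1 is also an early target of hormone signalling, those targets were read beside it. Of 11 measured glucocorticoid-responsive genes 1 rose, Per1 itself, which is also a member above. With the block 2 were higher, one of them Per1, and 3 lower: Tsc22d3 (-0.60 ± 0.35, adjusted p = 0.456; 0.00272), Sgk1 (-0.50 ± 0.39, 0.613; 0.00704, lost without replicate 3 at 0.0927) and Mt2A (-0.28 ± 0.27, 0.711; 0.00962, lost without replicate 1 at 0.0803 or replicate 2 at 0.0716). With the random block these 3 were lost (0.0893 to 0.309), and the list's median was 0.02. Of 12 cyclic AMP and immediate early genes 2 rose, Ier2 by 0.88 ± 0.16 (adjusted p = 0.0167) and Junb, a subunit of AP-1, by 0.72 ± 0.14 (0.0179), both under every alternative run. With the block 1 was lower, Atf3, a stress-induced factor (-0.43, 0.396; 0.0176, lost without replicate 3 at 0.213 and with the random block at 0.0903), and the median was -0.03. The part of these signals in the Per1 change was not tested.

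These 6 lists held 6, 4, 7, 15, 11 and 12 measured genes. For interferon alpha minus control at 6 h, 0 of them passed without the block, against 0.387% of all probe sets. With it 2 passed, against 1.1% of all, and they are named after their values were seen. Nampt, the NAD salvage enzyme and a liver clock output, was 0.99 higher (adjusted p = 0.348; 0.00944 with the block, lost there without replicate 2 at 0.202 or replicate 3 at 0.208), and its second probe set 1.03 higher (0.00146 with the block). Fkbp5, a glucocorticoid-induced chaperone partner, was 0.52 higher (0.151; 0.0367 with the block, lost there without replicate 2 at 0.624 or replicate 3 at 0.488). Its second probe set was 0.64 higher (0.0462 with the block). For the averaged 6 h minus 3 h change that second probe set read -0.48 (adjusted p = 0.0641; 0.00395 with the block), and the brighter one -0.10 (0.631; 0.424 with the block).

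The defining hepatocyte markers were bright and flat: 7 of 8 were measured, and the log2 of their summed level ran from 16.38 to 16.53 at 6 h and from 16.43 to 16.52 at 3 h. Over the same arrays the summed level of 4 Kupffer cell and macrophage markers ran from 11.82 to 12.31 at 6 h and from 11.68 to 12.18 at 3 h, that of 4 endothelial markers from 5.82 to 6.84 at 6 h and from 5.94 to 6.69 at 3 h, and that of 4 stellate cell and fibroblast markers from 7.00 to 7.16 at 6 h and from 7.03 to 7.35 at 3 h. That of 3 cholangiocyte markers ran from 10.91 to 11.72 at 6 h and from 10.76 to 11.62 at 3 h. That of 3 leukocyte markers ran from 5.58 to 5.74 at 6 h and from 5.57 to 5.69 at 3 h. The cholangiocyte sum was mostly Epcam (mean 11.28, against 3.47 for Krt19 and 3.93 for Krt7). The Kupffer cell and macrophage sum was mostly Cd14 (mean 11.9, against 3.72 for Cd163, 5.75 for Clec4f and 6.95 for Cd68). All endothelial and leukocyte markers had means below 5.2, the median over all probe sets. As a sign of RNA quality, the actin controls at the 3′ end exceeded those at the 5′ end by a log2 difference that ran from 0.61 to 0.74 at 6 h and from 0.58 to 0.78 at 3 h. The hours overlapped in each of these measures. For the averaged 6 h minus 3 h change no single marker passed without the block, against 3.89% of all probe sets. Of the 7, 4, 4, 4, 3 and 3 markers of these 6 cell types, 2 passed with the block, against 18.4% of all probe sets. The 2 were Stab2, of endothelial cells, at -0.22 (adjusted p = 0.0332) and Epcam, of cholangiocytes, at 0.18 (0.0265). Their part in the clock gene changes was not tested.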

How the data were processed

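Per the submitters' processing notes, the authors used affy, RMA and R 2.10.0, and the deposited values lie on a log2 scale. No source used here names the probe set definition file. The 57 control probe sets were left out and 31042 were tested. Symbols were those of the platform annotation, and a gene with several probe sets was read by the brightest. Differences were fitted with limma 3.58.1 in R 4.3.3 over all 12 arrays and 4 groups (8 residual degrees of freedom; 6 with the replicate number as a block), and p-values were adjusted by Benjamini-Hochberg within each comparison. Samples were grouped, and replicate numbers taken, from the titles. Over all probe sets, deviations of same-number arrays correlated at 0.479 to 0.829 in all 18 pairs, so the numbers pair the arrays. Nothing states that replicates come from separate animals, so p-values measure the spread between these arrays.

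The members and lists were chosen with earlier results of these data known. Named were all members, and from each list up to 4 genes that passed in either fit. Bmal1, Cry2, Bhlhe41 and Timeless were named besides, though they passed in neither fit. The fit was tested on simulated data. With 3 arrays per group, the number of arrays limits the precision. Alternatives were a fixed or random block, a variance trend, only probe sets above the median level, median centring, only the groups compared, and leaving out arrays or replicate numbers.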

Additional observations from a re-analysis of the deposited data

How the results depend on the processing

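With the replicate number as a fixed block, the clock probe sets called for 6 h minus 3 h were 6 with interferon alpha, 4 in controls and 10 averaged, against 0, 0 and 3 without it. With a random block they were 4, 2 and 7, the 3 averaged calls lost being Hlf 1374709_at, Nr1d2 1370541_at and Bhlhe40. With the fixed block and replicate 1, 2 or 3 left out they were 3, 0 and 6 with interferon alpha, 2, 1 and 2 in controls, and 6, 4 and 10 averaged. Leaving out 1 array at a time without the block left 0 to 3 averaged calls, and 0 in each treatment alone. A variance trend gave 2 averaged calls, and the filter on level and median centring gave 4 each. With the filter on level these included Nr1d1 (adjusted p = 0.0374). No direction was reversed. The interferon alpha comparisons and the difference of changes had 0 calls under all alternatives run. Over all probe sets, the averaged count was 5724 with the fixed block and 3776 with the random block, against 1209, and 644 to 989 without single arrays. It was 3005 and 1329, against 120, with interferon alpha, and 2529 and 830, against 59, in controls. These last 2 counts fell to 35 and 8 with a variance trend, to 1 and 2 with only the groups compared, and to 2 to 71 and 2 to 16 without single arrays. For interferon alpha minus control at 6 h it was 340 and 252, against 120, and 69 with only the groups compared.

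With 3 arrays per group and RMA values, a shift shared by all transcripts is not visible. The dim probe sets of Hlf (1384811_at) and Per3 (1388239_at) lie near background, where small differences cannot be seen. The hour was sampled at 2 points, so no phase or period can be read.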
